A study of Homo sapiens with 3 samples.

Results

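The stress and immediate early cells were 169 of 5640 BxPC-3 cells, taken as the cells with the highest summed level of 8 genes. The 8 genes were DDIT3, EGR2, EGR4, GEM, CXCL2, CXCL3, CXCL8 and C11orf96. Their unique molecular identifiers (UMIs, each counting 1 captured RNA molecule) were summed per 10000 UMIs of a cell, and the top 3% of cells from all 3 libraries pooled were kept. These cells are called members, and the remaining 5471 cells are called other cells. Because the 8 genes chose the members, their values are given as a description with no test.

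BxPC-3 is a human pancreatic ductal adenocarcinoma line. Cells stably carrying EGFP or mCherry were mixed in equal numbers and cultured in suspension, which leads some cells to enter others and form cell-in-cell structures. The study sorted double-positive (DP) cells with both fluorescent signals and single-positive (SP) cells with 1 signal, and it also took parental cells. Each group was 1 droplet library made with the 10x 5′ kit of version 2, and the labels do not say whether the SP library held both colours. With 1 library a group, no difference between groups has a replicate check, and every interval below covers counting error only.

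Immediate early genes are switched on within minutes of a signal from growth factors, adhesion or stress, without new protein synthesis, and many encode transcription factors such as FOS, JUN and the EGR family. NF-kB controls inflammatory chemokines and, with them, inhibitors of its own activation. The integrated stress response works through translation of ATF4, which raises DDIT3 (CHOP) and genes of amino acid supply. Carcinoma cells of the pancreas are a known source of the neutrophil-attracting chemokines CXCL1, CXCL2, CXCL3 and CXCL8.

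The libraries held 62517276 (DP), 51637677 (SP) and 65107147 (parental) UMIs, of which 97.7% to 98% lay in called cells. There were 1940 DP, 1291 SP and 2409 parental cells with medians of 29964, 38137 and 23290 UMIs in that order, so SP cells were the deepest. Pairs of libraries shared 1 to 6 cell barcodes. Members came out as carcinoma cells by their epithelial markers: EPCAM, KRT7, KRT8, KRT18, KRT19, CDH1, KRT17, MUC1 and CLDN4 summed to 14613 to 15356 UMIs per 1000000 (CPM) in members and to 14397 to 15419 CPM in other cells. Fibroblast markers summed to 0.685 to 4.20 CPM in members and 1.96 to 2.22 CPM in other cells, with 4 or 5 of the 6 at 0 in members. Endothelial, lymphocyte and erythroid markers summed to at most 1.71 CPM in members of any library. Myeloid markers summed to 3.42 to 3.85 CPM in members and 3.78 to 5.66 CPM in other cells, and 6 (DP), 6 (SP) and 4 (parental) of the 7 were at 0 in members. Neural and endocrine markers summed to 1.71 to 6.16 CPM in members, against 2.78 to 3.76 CPM in other cells.

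The start regions of 5 score genes show what these genes share in sequence. Each run is 250 bases before and 50 after a RefSeq transcription start on build GRCh38.p14, written on the gene's own strand. Capitals mark short motifs found on either strand: the NF-kB core GGAATTTCC in the 3 chemokine genes, the AP-1 site TGANTCA in CXCL8 and DDIT3, the cAMP response half-site ACGTCA in CXCL2 and EGR2, and a CArG box, the letters that serum response factor binds, in EGR2. The motifs were chosen after the windows had been read, and a match is not a binding site.

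CXCL2 (chr4:74099146-74099445, minus strand): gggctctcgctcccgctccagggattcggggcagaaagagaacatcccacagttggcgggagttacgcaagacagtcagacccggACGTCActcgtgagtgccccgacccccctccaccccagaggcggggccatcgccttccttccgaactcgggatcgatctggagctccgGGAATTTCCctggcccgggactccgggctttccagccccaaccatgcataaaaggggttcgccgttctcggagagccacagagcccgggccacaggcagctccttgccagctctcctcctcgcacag
CXCL3 (chr4:74038640-74038939, minus strand): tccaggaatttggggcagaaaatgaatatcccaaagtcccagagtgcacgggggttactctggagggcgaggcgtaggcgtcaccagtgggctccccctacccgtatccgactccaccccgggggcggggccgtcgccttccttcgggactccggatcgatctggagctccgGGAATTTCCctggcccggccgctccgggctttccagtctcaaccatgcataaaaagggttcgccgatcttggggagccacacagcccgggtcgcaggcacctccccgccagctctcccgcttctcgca
CXCL8 (chr4:73740319-73740618, plus strand): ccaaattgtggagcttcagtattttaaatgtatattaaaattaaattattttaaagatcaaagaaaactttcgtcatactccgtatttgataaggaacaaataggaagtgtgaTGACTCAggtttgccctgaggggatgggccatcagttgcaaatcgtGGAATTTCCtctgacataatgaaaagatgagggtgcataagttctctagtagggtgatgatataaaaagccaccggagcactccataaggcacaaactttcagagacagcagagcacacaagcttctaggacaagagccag
EGR2 (chr10:62816317-62816616, minus strand): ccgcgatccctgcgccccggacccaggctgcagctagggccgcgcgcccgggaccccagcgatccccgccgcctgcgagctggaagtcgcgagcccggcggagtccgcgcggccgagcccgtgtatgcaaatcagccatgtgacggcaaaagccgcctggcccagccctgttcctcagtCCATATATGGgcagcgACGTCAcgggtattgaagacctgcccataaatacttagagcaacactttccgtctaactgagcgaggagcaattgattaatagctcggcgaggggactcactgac
DDIT3 (chr12:57520465-57520764, minus strand): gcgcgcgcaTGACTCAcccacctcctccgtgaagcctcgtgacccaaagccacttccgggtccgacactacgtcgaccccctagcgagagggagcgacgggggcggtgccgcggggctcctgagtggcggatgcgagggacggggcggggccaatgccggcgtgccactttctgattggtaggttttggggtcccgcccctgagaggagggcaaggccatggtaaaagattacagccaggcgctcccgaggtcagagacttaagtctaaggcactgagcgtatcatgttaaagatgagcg

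The NF-kB core lay 77 to 69 bases before the start in CXCL2, 78 to 70 before it in CXCL3 and 91 to 83 before it in CXCL8. CXCL2 and CXCL3 shared a run of 37 bases around it, and CXCL8 shared with either of them no run longer than the 9 bases of the core itself. The core stood in 162 of all 35116 RefSeq windows (0.461%). Among genes with a window, it stood in 6 of 24 NF-kB feedback and target genes (25%), in 6 of 67 genes called at least 4-fold higher in members outside the score (8.96%), and in 52 of 7368 tested genes (0.706%). The AP-1 site stood in 7.71% of all windows, the half-site in 7.98% and the CArG box in 1.29%. A TATAAA stood in 20 of the 67 strongly higher genes (29.9%) and in 7.98% of tested genes. The AP-1 site stood in 8 of the 67 (11.9%) and in 7.06% of tested genes, and the CArG box in 5 (7.46%) and in 1.47%. The half-site went the other way, with 8 of the 67 (11.9%) against 15.0% of tested genes. The 67 were not cleared of genes that reached the 5 CPM needed for a test only through the members. The NF-kB core stood in 0 of 18 immediate early factors and 0 of 20 integrated stress response genes with a window. Of the 18 immediate early factors, 7 held the half-site (38.9%), 5 a TATAAA (27.8%), 2 the CArG box (11.1%) and 1 the AP-1 site (5.56%). No score gene was taken out of that list. GEM and C11orf96 had no window, EGR4 held the half-site at 2 places, and the other 2 windows of EGR2 held none of these motifs.

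CXCL2, CXCL3 and CXCL8, which recruit neutrophils through CXCR2, made up most of the score. CXCL2 gave 37.9% of the members' score UMIs, CXCL8 22.2% and CXCL3 15.1%. CXCL2 had 2003 (DP), 1207 (SP) and 1482 (parental) CPM in members, against 73.4 (DP), 70.7 (SP) and 68.9 (parental) CPM in other cells. CXCL8 had 998 (DP), 875 (SP) and 891 (parental) CPM in members, against 25.2 (DP), 28.9 (SP) and 31.5 (parental) CPM in other cells. The top cell held 42.4% of the CXCL8 UMIs in SP members, against 14.4% in DP and 11.6% in parental members. CXCL3 lay at 601 to 639 CPM in members and 15.1 to 22.1 CPM in other cells. The 3 genes lie with CXCL1 within 1 cluster on chromosome 4 (GRCh38, GENCODE 29 positions), from CXCL8 at chr4:73740506-73743716 to CXCL2 at chr4:74097035-74099293. CXCL1, CXCL2 and CXCL3 are close copies of each other, so reads that match more than 1 of them may have been split or lost in counting.

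DDIT3, the transcription factor CHOP of the stress response, gave 18.1% of the score. It had 766 (DP), 673 (SP) and 778 (parental) CPM in members, against 31.3 (DP), 32.3 (SP) and 33.3 (parental) CPM in other cells. The 4 remaining genes were rarer. EGR2, a zinc finger transcription factor induced by growth signals, had 58.2 (DP), 32.9 (SP) and 36.7 (parental) CPM in members and 1.46 to 1.82 CPM in other cells. EGR4, of the same family, lay at 47.3 to 78.7 CPM in members and 2.13 to 3 CPM in other cells. GEM, a small GTPase that restrains calcium channels, had 56.5 (DP), 57.5 (SP) and 125 (parental) CPM in members, against 3.57 to 3.71 CPM in other cells. C11orf96 lay at 51.4 to 105 CPM in members and 2.91 to 3.78 CPM in other cells. For each of the 8 genes the 3 libraries of members lay above the 3 of other cells, as the choice of members fixes.

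**Figure D1:**
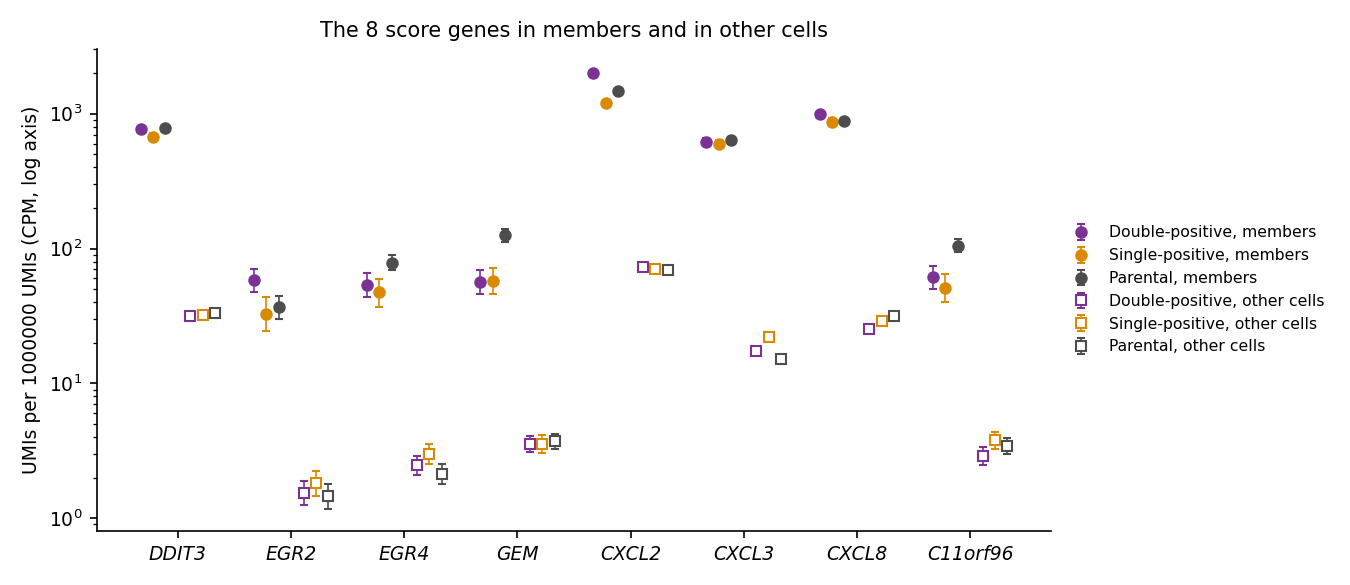
Level of each score gene (CPM, log axis) in members (filled circles) and other cells (open squares) of the 3 libraries; bars are exact 95% Poisson intervals for counting error. CXCL2 stands highest in members, at 2003 CPM in the DP library, and GEM and C11orf96 stand highest in parental members.

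Each gene was also left out in turn of the score that chose the cells, as a description with no test. The score genes may have been put together from these data. Of the cells chosen by the other 7 genes, 80.5% (CXCL2 left out) to 99.4% (EGR2, EGR4 or GEM left out) were members. In the top 3% of cells by the other 7 genes, the left-out gene was 12.3 to 37.1 times its level in the rest, the lowest being CXCL2 in the SP library and the highest EGR2 in the DP library. Barcodes with at most 100 UMIs held CXCL2 at 108 (DP), 86.6 (SP) and 115 (parental) CPM, no lower than in other cells, and DDIT3 at 50.4 (DP), 30.4 (SP) and 64.4 (parental) CPM. A single CXCL2 or DDIT3 UMI in another cell is therefore not read here as expression. Of members, 97.0% held a CXCL2 UMI and 43.8% an EGR2 UMI, against 51.0% and 3.58% of other cells. With every cell thinned to 6000 UMIs, 82.8% to 94.1% of members and 24% to 29.5% of other cells held a CXCL2 UMI.

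Members were 51 of 1940 DP cells (2.63%, exact 95% Clopper-Pearson interval 1.96% to 3.44%), 29 of 1291 SP cells (2.25%, 1.51% to 3.21%) and 89 of 2409 parental cells (3.69%, 2.98% to 4.53%). The parental share was the highest, and its interval overlapped both others. Thinning all cells to 6000 UMIs gave 2.73% (DP), 2.32% (SP) and 3.57% (parental). Without cells under 0.5% mitochondrial UMIs the shares were 2.36% (DP), 1.88% (SP) and 2.62% (parental). Such cells made up 15.7% (DP), 34.5% (SP) and 51.7% (parental) of members, against 5.93% (DP), 21.5% (SP) and 31.1% (parental) of other cells. Their part in the parental share was not tested beyond that.

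The score ran on without a gap at the edge. The lowest member scored 14.27 and the highest other cell 14.22, and 21 members lay within 10% above the edge and 20 other cells within 10% below it. The median was 25.8 UMIs per 10000 in members and 0.898 in other cells, and the highest member reached 279. Members were also deeper cells, with medians of 32061 (DP), 44875 (SP) and 28702 (parental) UMIs, against 29918 (DP), 37984 (SP) and 23067 (parental) in other cells. Cells of 50000 UMIs or more made up 19.6% (DP), 41.4% (SP) and 13.5% (parental) of members, against 8.47% (DP), 26.3% (SP) and 6.21% (parental) of other cells. No droplet was removed as a doublet, and whether larger droplets hold pairs of cells was not tested.

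**Figure D2:**
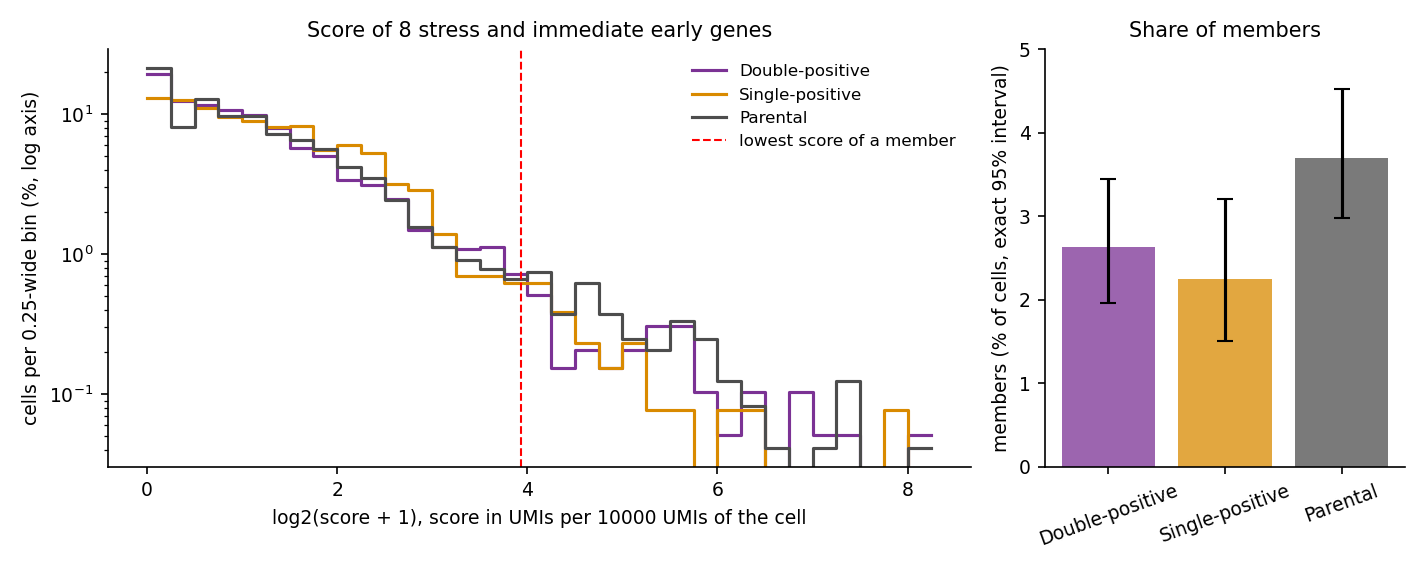
Left, cells of each library (%, log axis) by log2 of the score plus 1, with the lowest score of a member as a dashed line. Right, share of members in each library with its exact 95% binomial interval. Cells of each library lie on both sides of the edge at 14.27, and the shares are 2.63% (DP), 2.25% (SP) and 3.69% (parental).

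The score genes detected per cell are described here with no test, since they chose the members, and a UMI is not read as expression. A member held UMIs of a median of 6 score genes and another cell of 2. At least 5 were detected in 109 members (64.5%) and in 148 other cells (2.71%). CXCL2 was the largest part of the score in 89 members, DDIT3 in 38, CXCL8 in 24, CXCL3 in 17 and C11orf96 in 1, so 130 members were led by a chemokine and 39 by DDIT3 or C11orf96. When the top 3% was taken once by the 3 chemokines and once by the other 5 genes, 68 cells were in both, which is 40.2% of each set of 169. The overlap was 41 of 91 chemokine-chosen cells in the parental library (45.1%), 20 of 53 in DP (37.7%) and 7 of 25 in SP (28%). In cells chosen by the 3 chemokines, DDIT3 was 13.7 to 15.9 times its level in the rest, with 567 (DP), 535 (SP) and 645 (parental) CPM in the chosen cells. In cells chosen by the other 5 genes, CXCL8 was 13.3 to 22.8 times its level in the rest. These ratios carry the same limit, since the score genes may have been put together from these data.

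Outside the 8 genes, members differed from other cells in many genes, and the strongest differences were upward. UMIs were summed over members and over other cells in each library, and the 2 sums were compared with the library as a block, so that a p-value reflects how alike the difference was in the 3 libraries. Of 9497 genes tested by edgeR's quasi-likelihood test with Benjamini-Hochberg adjustment, 2661 (28%) were called at an adjusted p under 0.05, 1590 (16.7%) higher in members and 1071 (11.3%) lower. EGR2 and EGR4 were below the 5 CPM needed for the fit, and the 6 score genes in it are among the 1590. At least 2-fold changes were 437 upward and 41 downward, and at least 4-fold changes 88 upward and 2 downward. The 5 CPM filter was over all cells, members included, so a gene low in other cells could enter through the members. A falling gene had no such route, and the upward counts were not cleared of these genes. The median over all tested genes was -0.02 on the log2 scale. Without a filter on low counts, 1618 genes outside the score were higher and 2171 lower, and DESeq2 called 1273 higher and 676 lower.

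CCL20, the chemokine that attracts CCR6-bearing lymphocytes and dendritic cells, rose most among the genes named outside the score, by 4.23 ± 0.16 (log2 fold change ± SE; adjusted p = 1.15e-10). CCL20 had 374 (DP), 293 (SP) and 215 (parental) CPM in members, against 14.3 (DP), 15.9 (SP) and 16.8 (parental) CPM in other cells. C8orf4 rose by 4.12 ± 0.22, with 48.6 to 97.9 CPM in members and 3.77 to 5.78 CPM in other cells. RND1, a small GTPase that loosens adhesion and stress fibres, rose by 4.11 ± 0.14. RND1 had 68.5 (DP), 97.9 (SP) and 83.6 (parental) CPM in members, against 4.55 to 5.27 CPM in other cells. C8orf4 and RND1 averaged 4.62 and 4.87 CPM over the 3 libraries of other cells. Both passed the 5 CPM filter over all cells only through the members, so their changes are a description with no test. In all of these genes the lowest library of members lay above the highest library of other cells.

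**Figure D3:**
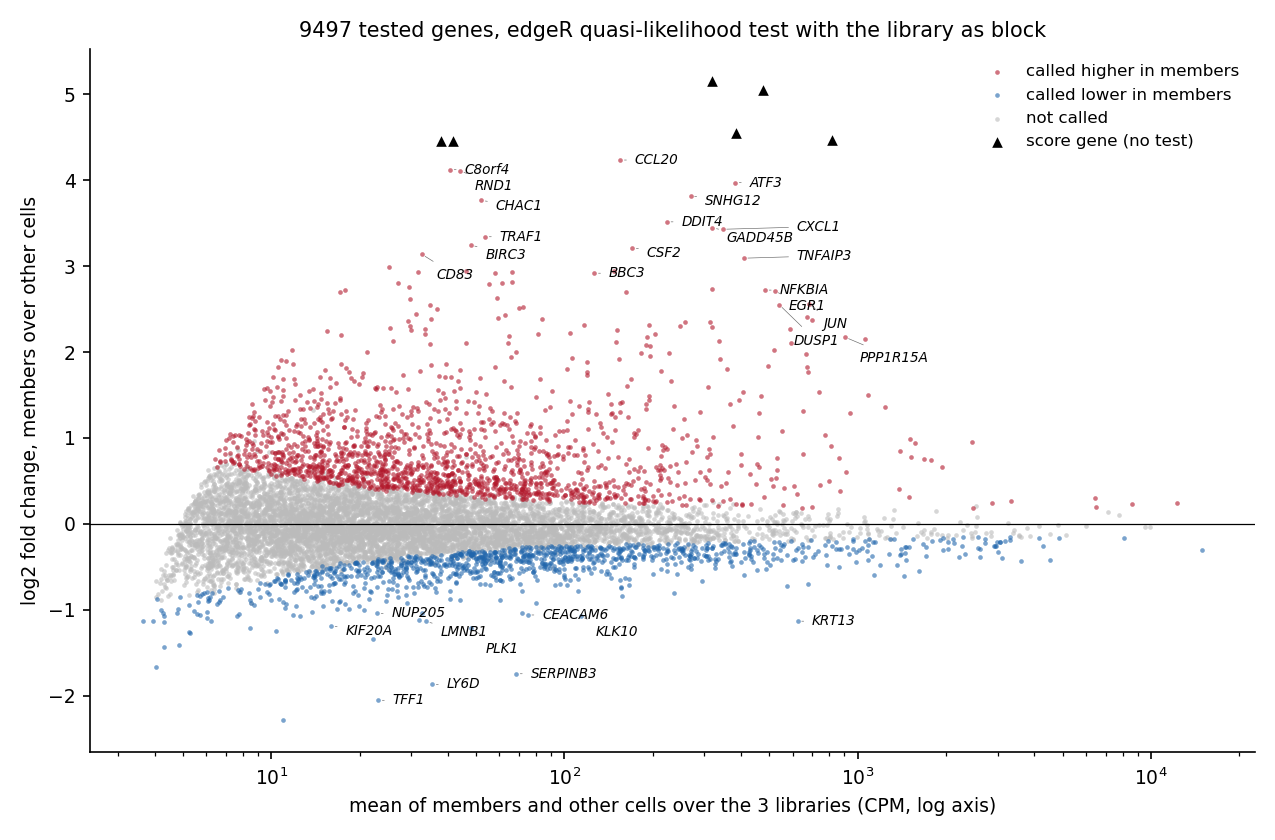
Log2 fold change of members over other cells against the mean level (CPM, log axis) for each tested gene; red and blue are genes called higher and lower, grey genes not called, black triangles the score genes. Changes past 2 on the log2 scale are nearly all upward. Among the genes named outside the score, CCL20 is highest at 4.23 and TFF1 lowest at -2.05; the 6 score genes in the fit lie above CCL20.

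The transcription factors of the immediate early response rose together. Of 21 tested, 20 rose, against 16.7% of all tested genes, with a median log2 fold change of 1.44 over the list. SRF, the factor that binds the CArG box, did not pass (-0.06). ATF3, a stress-induced repressor of the AP-1 family, rose by 3.97 ± 0.10 (adjusted p = 3.59e-12). ATF3 had 772 (DP), 627 (SP) and 753 (parental) CPM in members, against 41.7 (DP), 50.2 (SP) and 48.7 (parental) CPM in other cells. EGR1 rose by 2.71 ± 0.13, with 979 (DP), 779 (SP) and 936 (parental) CPM in members, against 140 (DP), 179 (SP) and 111 (parental) CPM in other cells. JUN, the partner of FOS in AP-1, rose by 2.56 ± 0.12 and reached 878 to 1323 CPM in members, against 191 to 215 CPM in other cells. NR4A1, an orphan nuclear receptor, rose by 2.38 ± 0.19, IER2 by 2.38, KLF6 by 2.3, FOS by 2.11 and FOSB by 1.93. The late members of the AP-1 family rose less, FOSL1 by 0.82 and FOSL2 by 0.70.

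Genes that switch these signals off rose in the same cells. Of 25 tested phosphatases, inhibitors and mRNA decay factors, 21 rose (84%, against 16.7% of all tested genes), with a median of 1.29. GADD45B, which binds stress kinases, rose by 3.45 ± 0.12, with 688 (DP), 449 (SP) and 616 (parental) CPM in members, against 54.2 (DP), 57.8 (SP) and 51.5 (parental) CPM in other cells. DUSP1, a phosphatase of MAP kinases, rose by 2.55 ± 0.10. ZFP36, which destroys cytokine mRNAs, rose by 2.26 ± 0.08 to 840 to 1079 CPM in members, against 196 to 215 CPM in other cells. PPP1R15A, the phosphatase subunit that ends the integrated stress response, rose by 2.17 ± 0.06. DUSP6 rose by 1.27 and SPRY4 by 1.35, whereas DUSP4 (-0.02), SPRED1 (0.27), SPRED2 (0.28) and ZFP36L2 (0.31) did not pass.

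All 26 tested genes of NF-kB feedback and its targets rose, against 16.7% of all tested genes, with a median of 1.84. TRAF1, a signalling adaptor, rose by 3.34 ± 0.13, and BIRC3, an inhibitor of apoptosis, by 3.25 ± 0.16. TRAF1 had 95.9 (DP), 95.2 (SP) and 101 (parental) CPM in members, against 9.73 (DP), 12.2 (SP) and 8.22 (parental) CPM in other cells. TNFAIP3 (A20), a brake on NF-kB activation, rose by 3.09 ± 0.14, with 801 (DP), 497 (SP) and 897 (parental) CPM in members, against 82.8 (DP), 90.8 (SP) and 84.5 (parental) CPM in other cells. The inhibitors NFKBIE and NFKBIA rose by 2.93 and 2.72, BCL2A1 by 2.99, CD83 by 3.14 ± 0.16 and ICAM1 by 2.51. The subunits rose less, NFKB2 by 1.70, NFKB1 by 1.48, RELB by 1.33 and RELA by 0.37.

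Secreted signals beyond the score genes rose as well. Of 17 tested cytokines and chemokines, 15 rose (88.2%, against 16.7% of all tested genes), with a median of 1.91. CXCL16 (0.06) and CCL28 (-0.41) did not pass. A further 11 genes of the list were below the 5 CPM filter. CXCL1 rose by 3.43 ± 0.14, with 857 (DP), 604 (SP) and 438 (parental) CPM in members, against 55.0 (DP), 72.9 (SP) and 49.1 (parental) CPM in other cells. CSF2, the growth factor GM-CSF for myeloid cells, rose by 3.21 ± 0.11 to 276 (DP), 318 (SP) and 325 (parental) CPM in members, against 36.7 (DP), 27.7 (SP) and 37.5 (parental) CPM in other cells. IL32 rose by 2.94, IL1A by 2.41 and EDN1 by 2.31. CXCL10 rose by 2.95 ± 0.37, but 1 cell held 48.1% of its UMIs in members. Of 14 growth factor ligands, 11 rose (78.6%, median 1.11). These included INHBA, a subunit of activin, by 2.07 ± 0.12, CTGF by 1.78 ± 0.17, BMP2 by 1.68 ± 0.10, and the EGF receptor ligand EREG by 1.40 ± 0.07. BTC (0.30), PDGFA (0.25) and PDGFB (0.58) did not pass.

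Genes downstream of ATF4 rose in part. In the integrated stress response list 13 of 21 tested genes rose (61.9%, against 16.7% of all tested genes), with a median of 0.64. CHAC1, which breaks down glutathione, rose by 3.76 ± 0.17 (adjusted p = 1.03e-09), with 95.3 (DP), 69.2 (SP) and 126 (parental) CPM in members, against 8 (DP), 7.51 (SP) and 6.45 (parental) CPM in other cells. DDIT4, an inhibitor of mTORC1, rose by 3.51 ± 0.13, with 417 (DP), 290 (SP) and 526 (parental) CPM in members, against 34.5 to 37.6 CPM in other cells. SESN2 rose by 2.82 ± 0.15, TRIB3 by 2.70 ± 0.15, the asparagine synthetase ASNS by 2.38 and ATF4 itself by 0.89. PSAT1 (0.07) and PHGDH (0.28) of serine synthesis, the amino acid carrier SLC7A5 (0.14) and the tRNA synthetases WARS (0.19) and MARS (0.23) did not pass. With members chosen by DDIT3, EGR2, EGR4, GEM and C11orf96 alone, 20 of the list rose, but that choice uses DDIT3, itself raised by ATF4. With members chosen by CXCL2, CXCL3 and CXCL8 alone, 13 rose, with a median of 0.52.

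The unfolded protein response moved at a few genes only. Of 20 tested, 6 rose (30%, against 16.7% of all tested genes) and 1 fell (5%, against 11.3%), with a median of -0.01. HERPUD1, a factor of ER-associated degradation, rose by 1.91 ± 0.08, with 218 to 256 CPM in members and 64.4 to 67.9 CPM in other cells. XBP1 rose by 1.89 ± 0.10, the sensor ERN1 (IRE1) by 1.78 ± 0.13, DNAJB9 by 1.1 ± 0.14, the chaperone HSPA5 by 0.63 and MANF by 0.31. SDF2L1 fell by 0.36, a call lost without the DP library. The chaperones HSP90B1 (0.05), CALR (-0.01), PDIA4 (-0.16), PDIA6 (-0.06) and HYOU1 (-0.13) did not pass.

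Of 20 p53 target and apoptosis genes, 11 rose (55%, against 16.7% of all tested genes), with a median of 0.68. The BH3-only killers BBC3 (PUMA) and PMAIP1 (NOXA) rose by 2.92 ± 0.09 and 2.74 ± 0.15. BBC3 had 213 (DP), 177 (SP) and 278 (parental) CPM in members, against 29.1 (DP), 26.3 (SP) and 34.8 (parental) CPM in other cells. The survival factor MCL1 rose by 1.11 ± 0.10, CDKN1A (p21) by 1.03 and MDM2 by 0.56. The p53 targets BAX (-0.02), SESN1 (0.00), TP53I3 (-0.09), ZMAT3 (0.12) and FDXR (-0.25) did not pass. SESN2 is in this list and in the stress response list.

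Host genes of small nucleolar RNAs, a list added after their levels were seen, held some of the highest changes. Of 9 tested, 7 rose (77.8%, against 16.7% of all tested genes), with a median of 1.5. SNHG9 (0.10) and SNHG10 (-0.08) did not pass. Their spliced transcripts are usually removed by a decay pathway that needs translation. SNHG12 rose by 3.82 ± 0.15, with 574 (DP), 301 (SP) and 633 (parental) CPM in members, against 36.1 (DP), 34.3 (SP) and 35.5 (parental) CPM in other cells. SNHG8 rose by 2.35 ± 0.11, TAF1D by 2.3 ± 0.08, SNHG15 by 1.61 ± 0.09 and ZFAS1 by 1.5. Of 82 cytosolic ribosomal protein genes, also listed afterwards, 48 fell, against 11.3% of all tested genes, and RPL22L1 rose by 0.84 ± 0.11. Their median was -0.18, and RPL17 fell by 0.48 ± 0.06. The number that fell was 22 without the DP library and 21 without the parental library. Tested genes whose longest transcript has at most 1000 bases, 411 in number, had a median of -0.14, against -0.03 to 0.00 in longer classes, and the part of length in the ribosomal values was not tested.

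**Figure D4:**
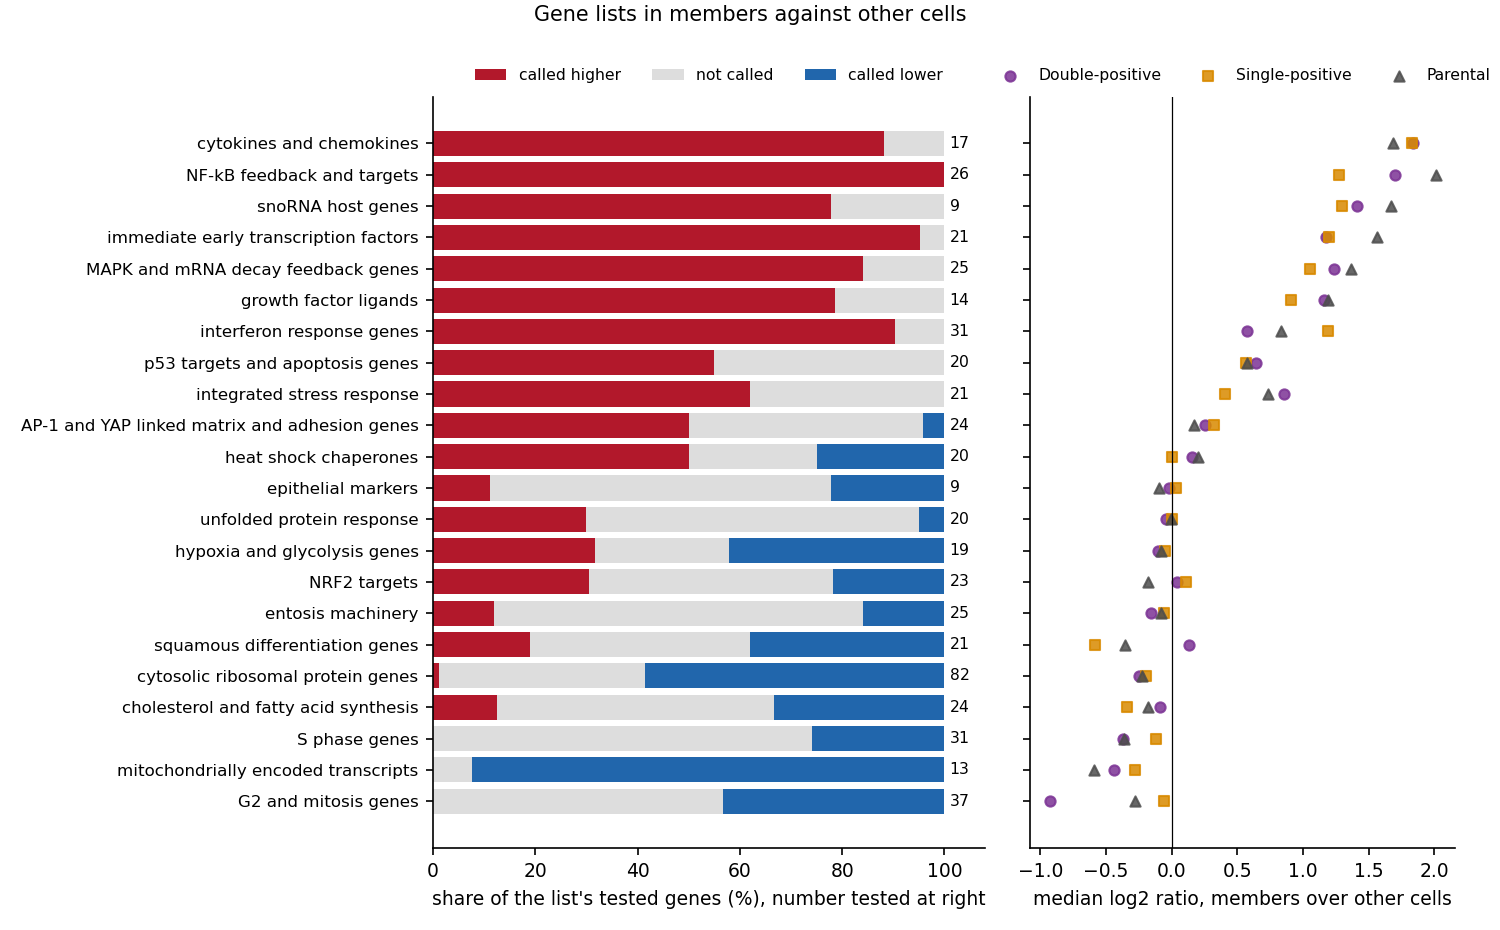
Left, share of each list's tested genes called higher (red), not called (grey) and called lower (blue) in members, with the number tested at the right. Right, the list's median log2 ratio of members over other cells in each library. NF-kB feedback and target genes were called higher in 26 of 26, and G2 and mitosis genes have the lowest median by the fit over 3 libraries; within libraries they are lowest in DP alone, at -0.93, with -0.06 in SP and -0.28 in parental.

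Interferon response genes rose in 28 of 31 tested genes (90.3%, against 16.7% of all tested genes), with a median of 0.91. IFI6 (0.08), OAS2 (0.27) and BST2 (0.03) did not pass. The median log2 ratio of the list was positive in all 3 libraries, at 0.58 (DP), 1.19 (SP) and 0.84 (parental). The SP value rested in part on 1 cell led by DDIT3, in which 14.3% of UMIs were of these genes, against a median of 1.62% over SP members. This cell held 95.2% of the IFIT2 UMIs, 91.9% of the OASL UMIs and all CCL5 UMIs of SP members. Cells with a UMI of an interferon gene were 7 of 169 members (4.14%) and 66 of 5471 other cells (1.21%). Without all of these cells, 28 genes of the list still rose, with a median of 0.69. With members chosen by the chemokines alone 20 rose (median 0.56), and without cells under 0.5% mitochondrial UMIs 21 rose (0.63). Members led by a chemokine summed to 18935 (DP), 13897 (SP) and 19172 (parental) CPM over the list. Other cells summed to 16447 (DP), 13734 (SP) and 16557 (parental) CPM. In this sum the SP members led by a chemokine, 21 of 29, thus lay close to SP other cells. RSAD2, an antiviral enzyme, rose by 2.79 ± 0.44, with 53.6% of its UMIs in members from 1 cell, and the RNA sensors DDX58 (RIG-I) and IFIH1 (MDA5) by 2.21 ± 0.25 and 1.94 ± 0.22, with 37.2% (DDX58) and 28.8% (IFIH1) from 1 cell. IFIT2 rose by 2.21 ± 0.57 in all cells, by 0.98 without the SP library, and missed the threshold at 0.09 without cells under 0.5% mitochondrial UMIs and at -0.13 with members chosen by the chemokines alone.

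Among genes of at least 5 CPM over all cells, fewer fell than rose, and by less. Without that filter 1618 genes outside the score were higher and 2171 lower. TFF1, a secreted mucosal peptide, fell by 2.05 ± 0.41 (adjusted p = 0.00211), with 16.0 (DP), 0 (SP) and 9.10 (parental) CPM in members, against 23.2 (DP), 45.8 (SP) and 44.9 (parental) CPM in other cells. LY6D, a surface protein of squamous epithelium, fell by 1.87 ± 0.24. SERPINB3, a squamous serpin, fell by 1.74 ± 0.20. LY6D had 11.4 (DP), 5.48 (SP) and 25.5 (parental) CPM in members, against 28.7 (DP), 66.5 (SP) and 74.7 (parental) CPM in other cells. KRT13, a keratin of stratified epithelium, fell by 1.13 ± 0.13, with 286 (DP), 295 (SP) and 607 (parental) CPM in members, against 715 (DP), 908 (SP) and 932 (parental) CPM in other cells. For each of these 4 genes every library of members lay below its own other cells. KLK10 fell by 1.08 ± 0.18 and CEACAM6 by 1.06 ± 0.27, although CEACAM6 in the DP library had 82.2 CPM in members and 84.7 CPM in other cells. LMNB1 (lamin B1) fell by 1.14 ± 0.15 and NUP205, of the nuclear pore, by 1.04 ± 0.17.

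Of 21 squamous differentiation genes, 4 rose (19.0%, near the 16.7% of all tested genes) and 8 fell (38.1%, against 11.3%), with a median of -0.15. The median was -0.29 without the parental library and -0.08 without the SP library. SPRR2D rose by 1.16 ± 0.24, with 185 (DP), 36.3 (SP) and 100 (parental) CPM in members, against 54.0 (DP), 45.1 (SP) and 39.2 (parental) CPM in other cells, so SP members lay below SP other cells. LCN2 rose by 0.45, and S100A8 fell by 1.1, KRT5 by 0.69 and KRT6A by 0.59. The number rising was 1 without the DP library, and DESeq2 called 4 of the list, all lower. The number falling was 5 without the SP library and 4 without the parental library.

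Some mitotic genes fell, 16 of 37 G2 and mitosis genes (11.3% of all tested genes fell), with a median of -0.46, and of 31 S phase genes 8 fell, with a median of -0.23. Without the SP library 12 S phase genes fell, with a median of -0.39. The mitosis list summed to 1305 (DP), 2372 (SP) and 1849 (parental) CPM in members, against 2432 (DP), 2525 (SP) and 2340 (parental) CPM in other cells. PLK1, a mitotic kinase, fell by 1.22 ± 0.21, with 10.8 (DP), 44.5 (SP) and 31.5 (parental) CPM in members, against 65.4 (DP), 71.4 (SP) and 64.4 (parental) CPM in other cells. The kinesin KIF20A fell by 1.19 ± 0.20, CDC20 by 0.84 ± 0.19, MKI67 by 0.54 and PCNA by 0.73 ± 0.10. Without the DP library 7 of the mitosis genes fell, with a median of -0.20. In members led by DDIT3 the mitosis list summed to 1178 (DP), 2613 (SP) and 3262 (parental) CPM, against 1334 (DP), 2273 (SP) and 1459 (parental) CPM in members led by a chemokine. DDIT3-led members of SP and parental thus lay above their other cells.

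In metabolism, the shares rising and falling are read against the 16.7% and 11.3% of all tested genes. Of 19 hypoxia and glycolysis genes, 6 rose (31.6%) and 8 fell (42.1%): ADM rose by 1.42 ± 0.10 and PFKFB3 by 1.07 ± 0.20, while the glycolytic enzymes PGAM1 fell by 0.41, ENO1 by 0.35 and LDHA by 0.24. The number falling was 4 without the parental library. Of 24 cholesterol and fatty acid synthesis genes, 3 rose (12.5%, below the share of all genes) and 8 fell (33.3%), and SCD, a fatty acid desaturase, fell by 0.64 ± 0.11. The number falling was 5 without the SP library, and the number rising was 1 without the parental library. Of 23 NRF2 targets, 7 rose (30.4%) and 5 fell (21.7%), with OSGIN1 rising by 2.19 ± 0.18 and PRDX1 falling by 0.60 ± 0.07. NQO1 (0.04) and HMOX1 (1.04 ± 0.38, adjusted p = 0.0555) did not pass.

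Heat shock chaperones were split. Of 20 tested, 10 rose (50%, against 16.7% of all tested genes) and 5 fell (25%, against 11.3%). HSPB8 rose by 1.39 ± 0.12 and DNAJB1 by 0.41, while the mitochondrial co-chaperone HSPE1 fell by 0.60 ± 0.07 and HSPA8 by 0.36. HSPA1A and HSPA1B, near-identical copies whose reads cannot be told apart with certainty, rose by 0.36 and 0.30. The number rising was 6 without the DP library and also 6 without the parental library. Of 5 metallothioneins MT2A rose by 0.23 ± 0.08, a call lost without the DP library and without the SP library, and of 5 nuclear-retained RNAs MALAT1 (0.02) and NEAT1 (0.12) were among those that did not pass. NEAT1 passed, at 0.29, without the parental library.

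Adhesion and contractility genes, which carry out entosis, the entry of 1 epithelial cell into another, were called about as often as all genes. Of 25 tested, 3 rose (12%, against 16.7% of all tested genes) and 4 fell (16%, against 11.3%), with a median of -0.05. RND3, an inhibitor of ROCK1, rose by 1.31 ± 0.07, with 433 (DP), 360 (SP) and 442 (parental) CPM in members, against 176 (DP), 157 (SP) and 177 (parental) CPM in other cells. MYL12B rose by 0.31, and CTNND1 (p120 catenin) fell by 0.45 ± 0.09 and the formin DIAPH1 by 0.41 ± 0.09. CDH1 (0.11), RHOA (-0.10) and ROCK1 (-0.14) did not pass. The number falling was 2 without the parental library. Of 24 matrix and adhesion genes linked to AP-1 and YAP, 12 rose (50%, against 16.7%) and 1 fell (4.17%, against 11.3%). ANKRD1 rose by 1.29 ± 0.11 and the laminin chain LAMB3 by 0.89 ± 0.08, while ITGA6 fell by 0.58. Without the SP library, 2 of these genes fell.

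Mitochondrially encoded transcripts fell in 12 of 13 genes, against 11.3% of all tested genes, with a median of -0.42. The number that fell varied between settings. They summed to 15514 (DP), 9854 (SP) and 6720 (parental) CPM in members, against 20793 (DP), 12285 (SP) and 9879 (parental) CPM in other cells. By edgeR's test, 4 fell when other cells were matched to members on UMIs, and 0 without cells of 50000 UMIs or more. In that last setting the median was -0.13 and 2 had an unadjusted p under 0.05. Without cells under 0.5% mitochondrial UMIs, 2 fell, with a median of -0.07. With members chosen by the score in cells thinned to 6000 UMIs, 13 fell, with a median of -0.44. Members were deeper cells, and the part of depth in these values was not tested.

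Members led by DDIT3 and members led by a chemokine also differed in genes outside the score. The split was made on the levels of the score genes themselves. Differences in genes tied to them, such as the ATF4-linked list for DDIT3 and CXCL1 for the chemokines, can follow from the split. That part was not tested. The values that follow describe 11 (DP), 8 (SP) and 20 (parental) members led by DDIT3 or C11orf96 and 40 (DP), 21 (SP) and 69 (parental) led by a chemokine, with no test. The integrated stress response list summed to 7830 (DP), 5078 (SP) and 6895 (parental) CPM in DDIT3-led members, against 2586 (DP), 2083 (SP) and 2973 (parental) CPM in chemokine-led members and 1600 to 1646 CPM in other cells. In every library the DDIT3-led members lay highest and the chemokine-led members in between. ASNS had 527 (DP), 269 (SP) and 289 (parental) CPM in DDIT3-led members, against 101 (DP), 40.6 (SP) and 92.0 (parental) CPM in chemokine-led members. TRIB3 was 6.61 (DP), 7.05 (SP) and 3 (parental) times as high, and CHAC1 6.16 (DP), 5.26 (SP) and 2.91 (parental) times.

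The small nucleolar RNA host genes followed the same order. They summed to 7060 (DP), 5285 (SP) and 7563 (parental) CPM in DDIT3-led members, against 2886 (DP), 2002 (SP) and 3199 (parental) CPM in chemokine-led members and 1050 to 1078 CPM in other cells. CXCL1 had the reverse order, with 329 (DP), 94.3 (SP) and 136 (parental) CPM in DDIT3-led members, against 979 (DP), 813 (SP) and 522 (parental) CPM in chemokine-led members. The NF-kB list was high in both, with 7376 (DP), 6671 (SP) and 7935 (parental) CPM in DDIT3-led members, against 6983 (DP), 4625 (SP) and 6935 (parental) CPM in chemokine-led members and 1798 to 1947 CPM in other cells. Immediate early factors were likewise high in both kinds, at 10096 to 12679 CPM in DDIT3-led and 6865 to 9869 CPM in chemokine-led members, against 2687 to 3018 CPM in other cells. The median depth was 27508 (DP), 48428 (SP) and 29137 (parental) UMIs in DDIT3-led members, against 33256 (DP), 44509 (SP) and 28702 (parental) UMIs in chemokine-led members, and its part in these values was not tested.

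**Figure D5:**
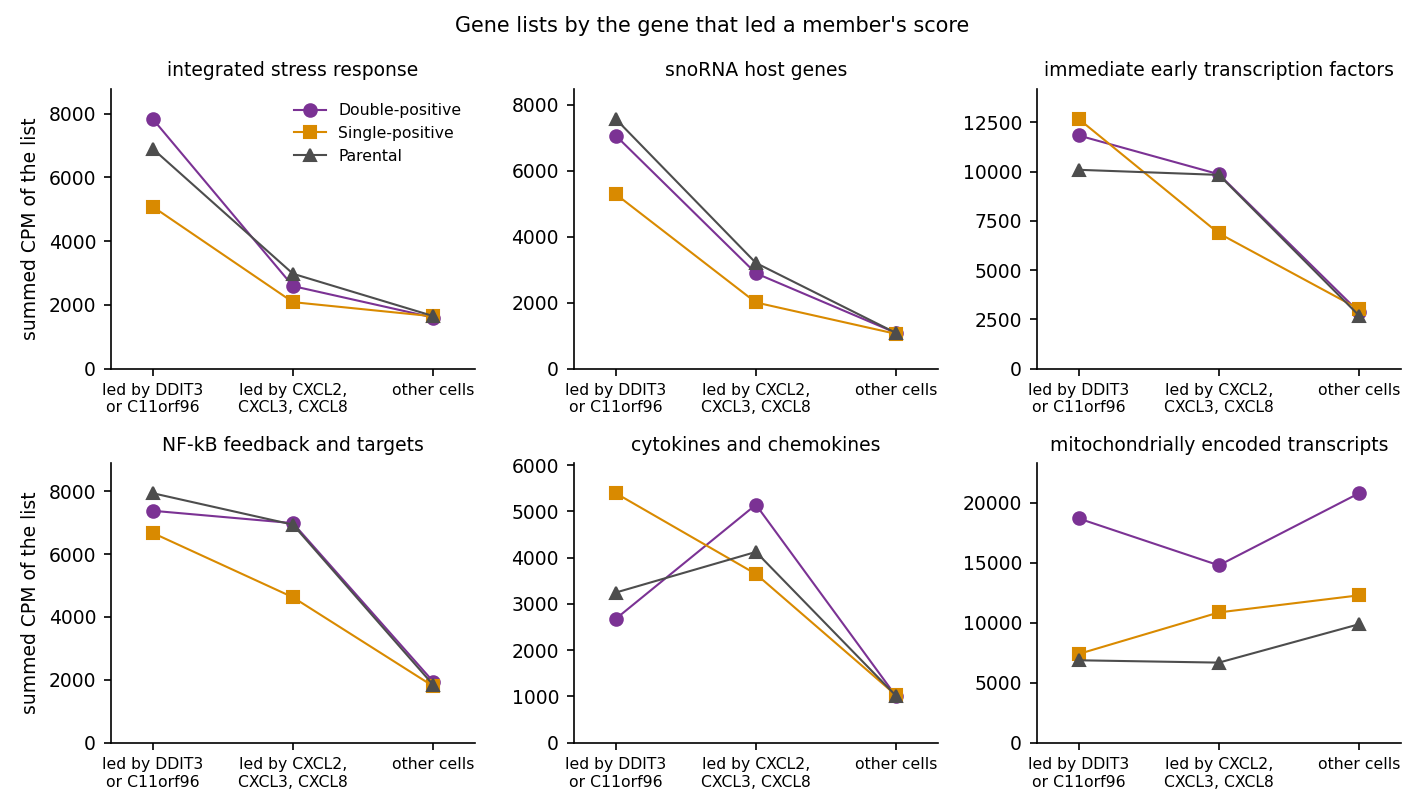
Summed level (CPM) of 6 gene lists in members led by DDIT3 or C11orf96, members led by CXCL2, CXCL3 or CXCL8, and other cells, with 1 line per library. The stress response and small nucleolar RNA host lists step down from left to right in each library, while the NF-kB list is high in both kinds of member; in SP, 1 interferon-rich cell is among the 8 DDIT3-led members.

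Cytokines and chemokines outside the score summed to 2676 (DP) and 3245 (parental) CPM in DDIT3-led members, against 5142 (DP) and 4122 (parental) CPM in chemokine-led members. In SP the values were 5391 CPM in DDIT3-led and 3646 CPM in chemokine-led members, and without the interferon-rich cell DDIT3-led SP members had 2656 CPM.

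Members of the 3 libraries resembled each other in most genes. Of the 5652 genes whose level averaged 20 CPM or more in members, 119 (2.11%) lay at least 2-fold apart between DP and SP members, 110 (1.95%) between SP and parental members, and 40 (0.708%) between DP and parental members. The same count in other cells was 3, 5 and 12 for the same pairs in that order, with far more UMIs behind each value. No test is possible between single libraries. CYP1A1, an enzyme induced through the aryl hydrocarbon receptor, had the largest ratio between DP and SP members and between SP and parental members. It had 61.6 (DP), 0.685 (SP) and 104 (parental) CPM in members, from 16, 1 and 33 cells with a UMI, while in other cells it had 11.1 (DP), 12.2 (SP) and 20.2 (parental) CPM. The SP value rests on 1 UMI, so its ratio to DP members, 5.91 on the log2 scale for DP over SP, has an interval of 3.98 to 11.81.

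MMP7, a matrix protease, stood higher in DP than in parental members, with 42.8 CPM in DP members and 10.5 CPM in parental members (log2 ratio 2.01, interval 1.40 to 2.69), while DP other cells had 15.2 CPM and parental other cells 18.1 CPM. BCL2A1, a survival factor under NF-kB, had 73.1 CPM in DP members and 26.6 CPM in parental members. NRARP, a feedback inhibitor of Notch, had 7.99 CPM in DP members and 40.2 CPM in parental members (log2 ratio -2.29, interval -3.25 to -1.53). PRSS1, SPRR2E and CCL5 were past 2-fold between SP and parental members, but 1 cell held 71.7% (PRSS1), 84.8% (SPRR2E) and 72.9% (CCL5) of their UMIs in parental members, and 1 cell held all CCL5 UMIs of SP members. In other cells PRSS1 also differed, with 4.57 CPM in SP and 20.6 CPM in parental. SPRR2E had 33.1 CPM in SP and 30.5 CPM in parental other cells, and CCL5 6.88 and 12.9 CPM. Among the score genes, GEM was lower in DP than in parental members by 1.14 on the log2 scale (interval -1.48 to -0.82), and C11orf96 was lower by 0.78 (-1.12 to -0.46). The top cell held 24.3% of the GEM UMIs in parental members and 21.2% in DP members. DDIT3 lay within 0.21 on the log2 scale in each pair of libraries.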

How the data were processed

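Each library's deposited values were whole-number UMI counts per gene and barcode, made by the authors with Cell Ranger 4.0.0 and GRCh38, and Seurat 4.0.6 was also used, per the submitters' processing notes. Barcodes with at least 6500 UMIs, 500 genes and at most 20% mitochondrial UMIs were kept as cells, and no doublet caller was run. Members are the top 3% of pooled cells by the 8-gene score. The members and gene lists were chosen with earlier results of these data known, and the lists of small nucleolar RNA host genes and ribosomal proteins were added after the levels were seen. UMIs of members and of other cells were summed in each library, and genes of at least 5 CPM over all cells were fitted with edgeR 4.0.16 (R 4.3.3; TMM scaling, quasi-likelihood test, library as a block, Benjamini-Hochberg adjustment), which gives every adjusted p. The SE is the log2 fold change divided by the square root of F. On simulated data the fit called 98% of genes changed 2-fold upward, 86% of those halved and 0.129% of unchanged genes, among 9497. The simulated counts used the dispersion fitted to these data and held no gene carried by 1 cell, so these rates do not cover such genes. DESeq2 1.42.0 was an alternative. Per-library ratios had 0.5 UMIs added.

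Libraries were compared without a test, as each group was 1 library, so p-values measure how alike members differ from other cells in 3 libraries of different groups. UMIs remove PCR copies, and intervals are exact at the 95% level for counting error alone. The genes named were the 14 highest and 10 lowest with the same sign in all libraries and at least 20 CPM, up to 4 genes per list and the 4 highest and lowest between libraries. Other genes of the lists were named after their values were seen. Alternatives changed the scaling, filter, test, score genes, threshold, depth matching and cells kept. Promoter windows are from RefSeq, and gene positions from GENCODE 29 were matched to 33132 features. Sums and tables were made in Python 3.11.15 with pandas 2.3.3 and numpy 2.4.6, intervals with scipy 1.17.1 and figures with matplotlib 3.10.9.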

Additional observations from a re-analysis of the deposited data

Results flagged for a closer look

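In 5 lists the median log2 ratio of members over other cells had opposite signs in the libraries, and the difference between libraries was not tested in any of them. The median of squamous differentiation genes was 0.13 in the DP library, -0.58 in the SP library and -0.35 in the parental library. The median of NRF2 targets was 0.037 in the DP library, 0.11 in the SP library and -0.18 in the parental library. Heat shock chaperones had medians of 0.15 in the DP library, -0.0012 in the SP library and 0.20 in the parental library. Metallothioneins had medians of -0.14 in the DP library, 0.26 in the SP library and -0.10 in the parental library. The 9 epithelial markers had medians of -0.020 in the DP library, 0.031 in the SP library and -0.095 in the parental library.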

How the results depend on the processing

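The number of genes called higher outside the score stayed within 1.5 times of 1584 in each of the 17 alternatives, between 1078 and 1775. The number called lower, 1071, moved more: it was 2171 without a filter on low counts, 640 with the top 1% of cells, 671 with the 3 chemokines alone as the score, 621 without cells of 50000 UMIs or more and 676 by DESeq2, and 638 to 1087 when each library was left out in turn. The parental share of members was 2.62% without cells under 0.5% mitochondrial UMIs. Among named genes, IFIT2 was -0.13 with the chemokine score. NEAT1 was -0.0046 without a filter and -0.33 with the top 1%, and MT2A was -0.27 with the score of DDIT3, EGR2, EGR4, GEM and C11orf96. MT1X was 0.030 with the chemokine score, and MT1E was 0.094 with the top 5%, 0.19 with the chemokine score, 0.036 without cells under 0.5% mitochondrial UMIs and 0.019 without cells of 50000 UMIs or more. With each library left out, SRRM2 lay between -0.29 and 0.0062, MT1F between -0.013 and 0.39, and MT1E between -0.17 and 0.019. The cause was not tested in any of these. Of 90 named genes called by edgeR outside the score, DESeq2 called 79 in the same direction and missed 11, among them TFF1, PLK1, KLK10, CEACAM6, IFIT2 and SPRR2D. SP values rest on 29 members. Members and other cells were paired through the library block, while no paired analysis between groups was possible because each group was 1 library.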
